A study of Mus musculus with 12 samples.

Results

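The genes described here are those of the receptors and ligands through which microglia receive growth factor and fractalkine signals: the colony-stimulating factor receptor genes Csf1r, Csf2ra, Csf2rb and Csf3r, the ligand genes Csf1 and Il34, and the fractalkine pair Cx3cr1 and Cx3cl1. They were taken by symbol from the deposited tables and are 8 of the 40853 symbols in each table. All 8 are in both tables. Csf1r was selected partly on its lower CPM in KO than in WT microglia, so its genotype values in microglia are given below as a description with no test. RNA was sequenced from microglia and astrocytes sorted by flow cytometry from whole brains of mice aged 8 to 9 weeks, WT or labelled KPNA4 KO. KPNA4 is importin α4, an adaptor that carries proteins into the nucleus. All animals, WT included, had received lipopolysaccharide (LPS, a bacterial cell wall component) at 1 mg/kg by intraperitoneal injection 20 h before dissection, and untreated animals were not analysed here. There were 3 libraries in each of the 4 groups (microglia WT, microglia KO, astrocytes WT, astrocytes KO). The 6 animals, 3 of each genotype, gave 1 library of each cell type.

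CSF1R is a receptor tyrosine kinase on which microglia depend for survival. It has a pair of ligands, CSF-1 and IL-34, of which IL-34 is known in the brain mainly from neurons. The receptors for GM-CSF, a heteromer of the chains encoded by Csf2ra and Csf2rb, and for G-CSF, encoded by Csf3r, belong to the cytokine receptor family and are best known from myeloid cells. CX3CR1 is the G protein-coupled receptor for fractalkine (the product of Cx3cl1), a chemokine that is anchored in the membrane of neurons and can be shed from it, and in the brain CX3CR1 is a classical marker of microglia.

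The stretch upstream of the start site is shown for the 5 members of the 8 that are in the RefSeq promoter table, since these genes fell into a microglia-rich and an astrocyte-rich group in the data below. Each sequence is the 250 bases before the start, 5′ to 3′ on the strand of the gene, in GRCm38.p6 coordinates of that table, while the deposited counts rest on GRCm39 per the submitters' processing notes. Capitals mark the letters GAGGAA, the core bound by the myeloid factor PU.1 (TTCCTC on the other strand), or a classical κB sequence, bound by NF-κB, on either strand. The letters searched were chosen after the sequences had been seen.
Csf3r (chr4:126024409-126024658, plus strand): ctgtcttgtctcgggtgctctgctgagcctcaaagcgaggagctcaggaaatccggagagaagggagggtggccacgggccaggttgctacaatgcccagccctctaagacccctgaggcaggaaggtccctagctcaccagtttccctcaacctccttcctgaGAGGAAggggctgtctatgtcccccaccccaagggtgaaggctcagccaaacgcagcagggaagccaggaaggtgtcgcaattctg
Csf2ra (chr19:61228419-61228668, minus strand): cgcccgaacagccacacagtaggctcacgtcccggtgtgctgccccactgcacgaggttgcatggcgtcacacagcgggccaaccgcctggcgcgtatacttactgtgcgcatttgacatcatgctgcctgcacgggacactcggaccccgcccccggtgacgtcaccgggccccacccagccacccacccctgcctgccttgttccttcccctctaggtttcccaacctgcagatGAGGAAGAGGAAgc
Cx3cr1 (chr9:120068297-120068546, minus strand): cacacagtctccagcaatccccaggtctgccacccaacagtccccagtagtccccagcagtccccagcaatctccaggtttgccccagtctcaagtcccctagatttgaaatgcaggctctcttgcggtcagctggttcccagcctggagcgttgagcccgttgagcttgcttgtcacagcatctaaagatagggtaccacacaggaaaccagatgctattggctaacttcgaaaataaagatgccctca
Csf1 (chr3:107760470-107760719, minus strand): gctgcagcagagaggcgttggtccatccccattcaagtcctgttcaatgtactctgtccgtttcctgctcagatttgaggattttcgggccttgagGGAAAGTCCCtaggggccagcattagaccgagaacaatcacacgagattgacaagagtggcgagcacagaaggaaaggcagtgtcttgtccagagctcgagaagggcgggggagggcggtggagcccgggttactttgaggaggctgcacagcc
Cx3cl1 (chr8:94771930-94772179, plus strand): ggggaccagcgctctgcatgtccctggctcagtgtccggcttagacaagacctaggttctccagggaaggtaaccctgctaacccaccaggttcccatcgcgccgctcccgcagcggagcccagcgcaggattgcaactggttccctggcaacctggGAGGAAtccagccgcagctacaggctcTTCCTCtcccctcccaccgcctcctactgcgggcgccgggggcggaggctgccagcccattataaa
GAGGAA was found in the windows of Csf3r, Csf2ra and Cx3cl1, and it is in 23.3% of all 32851 windows of this length in the table. Its first letter lies 86 bases before the start in Csf3r. In Csf2ra it occurs in tandem, from 14 and from 8 bases before the start. In Cx3cl1 it lies at 93 bases on the printed strand and at 66 on the other. The κB sequence was found among these windows in that of Csf1 only, on the other strand from 154 bases before the start, and it is in 46 of the 32851 windows (0.14%). Neither was found in the Cx3cr1 window. GAGGAA was thus present upstream of genes from both groups.

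The microglia libraries held 10.3 M to 14.5 M counts, those of astrocytes 10.7 M to 15.6 M. Levels are given in CPM, the count divided by the library total in M. Kpna4 was at 67.9 to 96.4 CPM in the microglia labelled WT and 59.8 to 78.6 CPM in those labelled KO, and at 40.1 to 57.6 and 43.8 to 80.2 CPM in the corresponding astrocytes. Which part of the gene was deleted is not stated in the labels. Whole-gene counts therefore do not check the genotype, and KO below means labelled KO. A list of 10 microglia markers (among them Tmem119, P2ry12 and C1qa) took 0.772% to 1.20% of the counts in microglia and 0.0165% to 0.0405% in astrocytes. A list of 10 astrocyte markers (among them Aqp4, Gja1 and Slc1a2) made up 1.57% to 2.10% in astrocytes and, in microglia, 0.0334% to 0.0726%. All 20 genes had counts in the cell type they mark.

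The receptors were microglial. Csf1r, Cx3cr1, Csf3r, Csf2rb and Csf2ra were each higher in microglia than in astrocytes in 6 of 6 animals, with fitted differences of 10.6-fold to 50.6-fold. Of the ligands, Cx3cl1 and Il34 were higher in astrocytes, while Csf1 was higher in microglia, in 6 of 6 animals each. For Il34 this includes KO replicate 2, with 3 counts in astrocytes and 0 in microglia, too few to tell apart. By edgeR's quasi-likelihood test over 12 libraries, all 8 members were called between the cell types at an adjusted p under 0.05 (Benjamini-Hochberg over all genes), against 64.6% of the 17294 genes tested. Of the members 6 were called higher in microglia, as were 28.2% of all genes, and 2 were called higher in astrocytes, as were 36.4%. In bulk libraries of sorted cells, fewer cells of a type and less RNA per cell cannot be told apart.

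**Figure D1:**
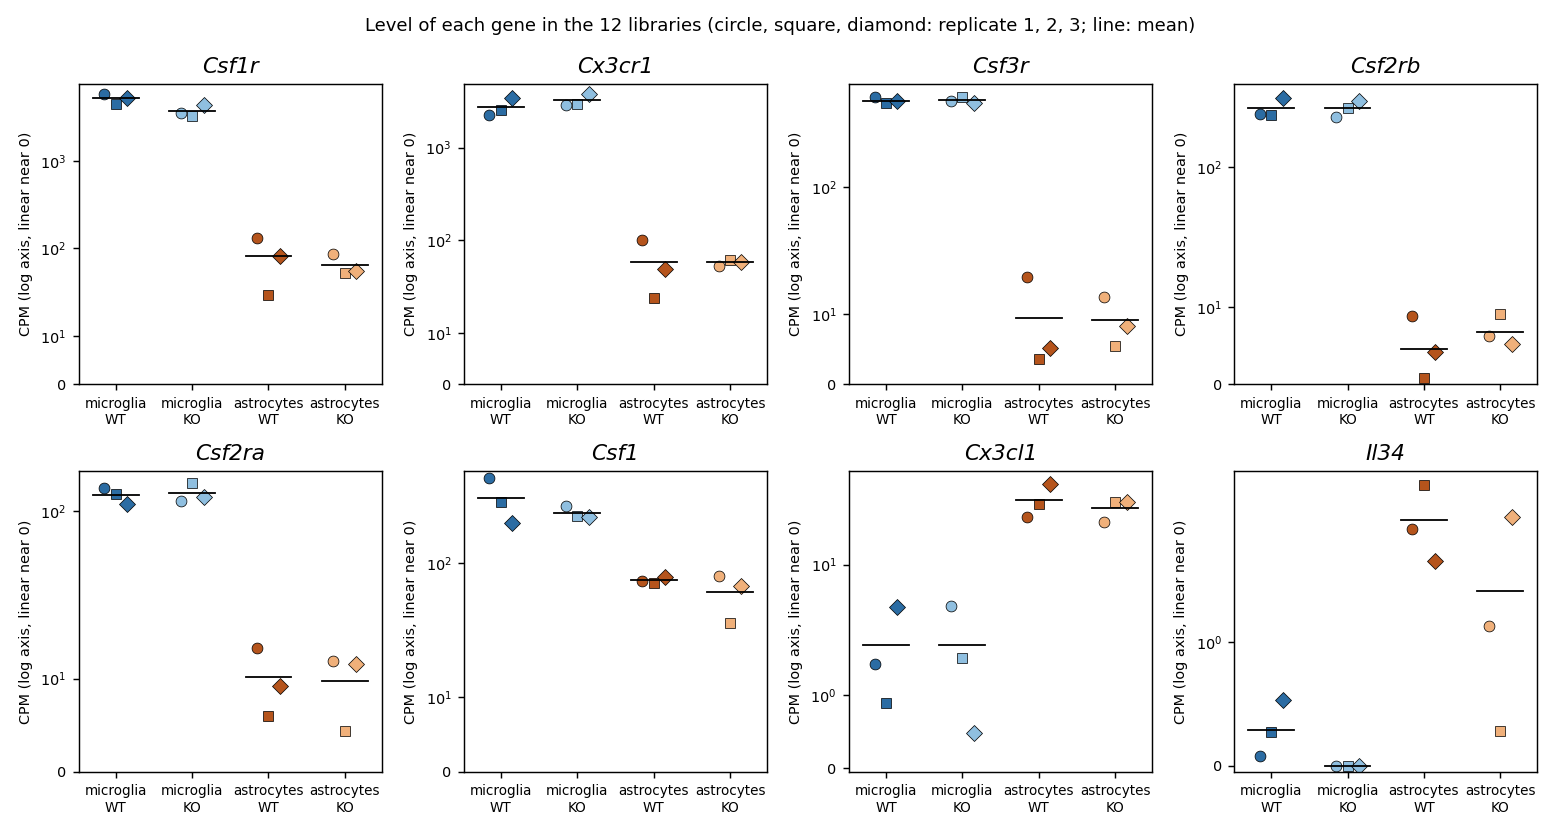
Level of each of the 8 genes in CPM (log axis, linear near 0) in the 12 libraries, by cell type and genotype; symbols are replicates and lines group means. The receptor genes and Csf1 are higher in microglia, Cx3cl1 and Il34 are higher in astrocytes, and WT and KO libraries overlap except for Csf1r and the near-zero Il34 in microglia.

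In microglia Csf1r had the highest CPM of the members in each library. In microglia it was at 5831, 4468 and 5162 CPM in WT replicates 1 to 3 and at 3475, 3224 and 4318 CPM in KO replicates 1 to 3. In astrocytes it was at 131, 28.9 and 81.2 CPM in WT animals and 85.0, 51.9 and 54.3 CPM in KO. Every microglia library lay above every astrocyte library, and the log2 difference was 5.66 (SE 0.33, edgeR adjusted p 1.95e-09).

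Cx3cr1 had the next highest level. Its microglia libraries were at 2222, 2565 and 3419 CPM in WT animals and 2885, 2972 and 3794 CPM in KO animals. The astrocyte libraries were at 101, 23.8 and 49.0 CPM (WT) and 53.3, 61.9 and 58.9 CPM (KO). The cell types did not overlap, and the log2 fold change was 5.38 (SE 0.32, edgeR adjusted p 2.53e-09).

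Csf3r, the G-CSF receptor gene, varied little among microglia libraries, from 455 to 514 CPM. In astrocytes it ranged from 3.66 CPM in WT replicate 2 to 19.4 CPM in WT replicate 1. The log2 fold change was 5.44 (SE 0.37, edgeR adjusted p 1.03e-08). Csf3r is also known from neutrophils, and the 8 neutrophil markers (among them S100a8 and S100a9) together took 0.000233% to 0.00268% of counts in microglia and 0.000444% to 0.00140% in astrocytes. Their part in the Csf3r level was not tested. S100a8 and S100a9 had counts in 12 of 12 libraries. Ly6g had counts in 2 of them, both of microglia.

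The chains of the GM-CSF receptor differed in how far the cell types were apart. Csf2rb, the β chain shared with the IL-3 and IL-5 receptors, was at 229 to 314 CPM in microglia and 0.813 to 9.03 CPM in astrocytes, or 5.25 on the log2 scale (SE 0.41, edgeR adjusted p 3.58e-08). Csf2ra, the chain specific for GM-CSF, was at 138, 126 and 109 CPM in WT microglia and 115, 146 and 122 CPM in KO microglia. In astrocytes Csf2ra was at 15.3, 6.02 and 9.23 CPM in WT animals and 12.7, 4.37 and 12.3 CPM in KO animals. Its log2 fold change was 3.41 (SE 0.25, edgeR adjusted p 2.34e-08), the lowest among the 5 receptor genes. Mice have a close copy of Csf2rb, Csf2rb2, whose product is a β chain for IL-3. In the longest coding transcripts of GENCODE M21, 18.4% of the 50-base windows of Csf2rb are also in Csf2rb2, and the deposited values of both genes in microglia are not whole numbers. How their shared reads were divided is therefore uncertain. Csf2rb2 was at 140 to 225 CPM in microglia and at 0 to 4.10 CPM in astrocytes.

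Csf1 was expressed in both cell types and more in microglia, which also carry its receptor. It was at 426, 281 and 199 CPM in WT microglia and 265, 222 and 218 CPM in KO microglia. In astrocytes Csf1 was at 73.8, 70.3 and 78.4 CPM in WT animals and 79.9, 35.6 and 67.2 CPM in KO animals. The lowest microglia library was above the highest astrocyte library. The log2 fold change was 1.74 (SE 0.20, edgeR adjusted p 2.90e-06), and within an animal the microglia level was 2.53 to 6.22 times the astrocyte level, with a median of 3.65.

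Il34, the other CSF1R ligand gene, was near the limit of detection. The microglia libraries held 1, 3 and 7 counts in WT and 0 counts in each KO library, and the astrocyte libraries held 45, 63 and 34 counts in WT and 14, 3 and 57 in KO. In CPM the astrocytes ranged from 0.279 in KO replicate 2 to 5.12 in WT replicate 2. Summed over the group, Il34 was 11.9 times as abundant in WT astrocytes as in WT microglia (exact 95% interval 6.44 to 24.3, counting error only). In KO it was at least 23.8-fold higher in astrocytes, taking 3 counts over the microglia group as the limit that a count of 0 allows. Single animals moved both values: without WT replicate 3 the WT ratio was 25.2, and without KO replicate 3, which held 57 of the 74 counts, the lower bound in KO was 5.61-fold. The edgeR adjusted p between the cell types was 5.79e-04.

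Cx3cl1 was at 23.0, 29.0 and 41.6 CPM in WT astrocytes and 21.3, 30.2 and 30.0 CPM in KO astrocytes. In microglia it was at 1.73, 0.897 and 4.72 CPM in WT animals and 4.84, 1.92 and 0.482 CPM in KO animals, from 7 to 62 counts. All astrocyte libraries were above all microglia libraries, with a log2 fold change of -3.89 for microglia over astrocytes (SE 0.50, edgeR adjusted p 7.02e-06). Neurons, known as a source of fractalkine and IL-34, were present as a trace: 10 neuron markers (among them Snap25 and Syt1) made up 0.0136% to 0.0328% of counts in astrocytes and, in microglia, 0.00158% to 0.00448%. All 10 of these genes were called higher in astrocytes, with log2 fold changes of microglia over astrocytes from -3.59 to -1.81 and a median of -2.99. Markers of other cells were also in the astrocyte libraries, at 0.0310% to 0.0422% (mural cells), 0.00270% to 0.0127% (endothelium) and 0.0875% to 0.407% (oligodendrocytes). Of these markers 5 of 5, 3 of 7 and 4 of 8 were called higher in astrocytes, beside 36.4% of all genes. The part of neurons or of these other cells in the levels of Il34 and Cx3cl1 was not tested.

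**Figure D2:**
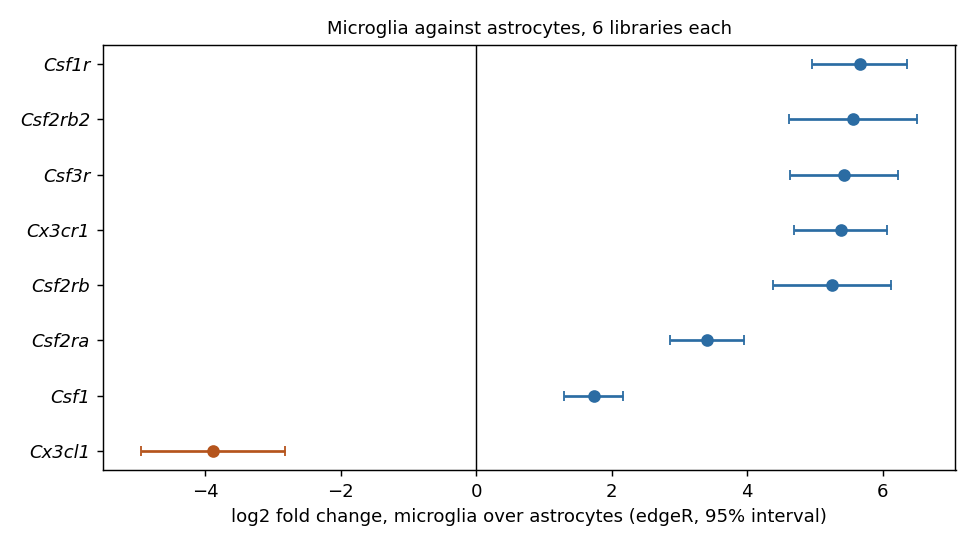
Log2 fold change of microglia over astrocytes with its 95% interval (edgeR, 6 libraries of each cell type) for 7 members and Csf2rb2; Il34 is left out because the KO microglia held no count. Csf2ra (3.41) and Csf1 (1.74) lie between the other receptor genes (5.25 to 5.66) and Cx3cl1 (-3.89).

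The growth factors of the other receptors were almost without counts. Csf2, the GM-CSF gene, and Il3 had 0 counts in 12 of 12 libraries, which allows up to 0.193 to 0.291 CPM per library. Csf3, the G-CSF gene, had 6 counts in all, in 2 of the 12 libraries. The receptor chain genes Csf2ra, Csf2rb and Csf2rb2 were thus measured in microglia without a detectable transcript of Csf2 or Il3 in either sorted type at this depth. Il3ra, another gene of the IL-3 receptor, was low in microglia, at 0.718 to 3.31 CPM.

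The receptor counts of the astrocyte libraries were set against those of the microglia markers in the same animals. Csf1r in astrocytes was 1.59% of its level in the microglia of the same animal (median of 6 animals, 0.648% to 2.45%), Cx3cr1 1.70% (0.929% to 4.55%), Csf3r 1.46% (0.804% to 3.83%) and Csf2rb 2.23% (0.345% to 3.69%). The medians of 9 of the 10 microglia markers lay between 1.31% and 2.44%, so these 4 receptor genes were in the range of the markers. The library of WT replicate 1 had the highest summed level of the marker list in astrocytes, at 405 CPM, and that of WT replicate 2 the lowest, at 165 CPM. The same libraries held the highest and the lowest astrocyte values of Csf1r, Cx3cr1 and Csf3r. For Csf2rb the lowest was also in WT replicate 2, but the highest was in KO replicate 2, at 9.03 CPM beside 8.85 CPM in WT replicate 1.

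Csf2ra stood outside that range, at 9.25% (2.99% to 11.1%). It exceeded the percentage of the summed marker list, which was 2.67% (1.97% to 5.25%), in 6 of 6 animals, though only by 2.99% against 2.55% in KO replicate 2. One marker had a percentage as high, Sall1, at 9.26%. Csf1 was at 27.6% (16.1% to 39.5%), above the marker list in 6 of 6 animals and above each of the 10 markers by its median. These ratios were compared after the values had been seen and are given without a test.

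**Figure D3:**
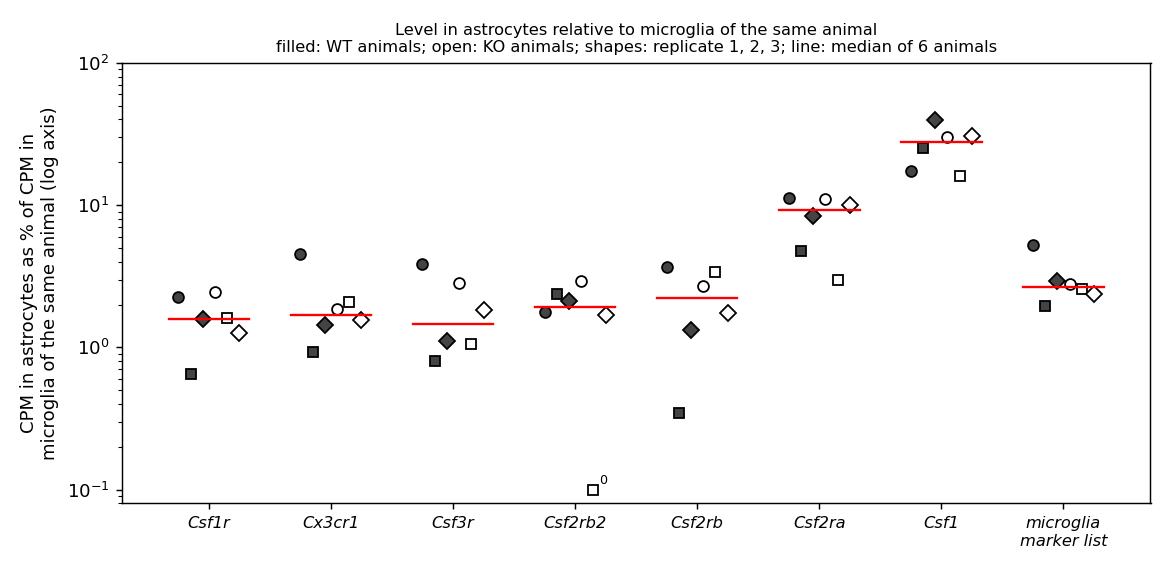
CPM in astrocytes as a percentage of CPM in the microglia of the same animal (log axis), for the receptor genes, Csf2rb2, Csf1 and the summed list of 10 microglia markers; each symbol is 1 animal and the line is the median. Csf1r, Cx3cr1, Csf3r and Csf2rb lie at a few percent or less, with medians below that of the marker list, and Csf2ra and Csf1 lie above the list. The Csf2rb2 value of KO replicate 2, which is 0, is drawn at the bottom of the axis.

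Levels of different genes can be compared only per length, and for this the CPM were divided by the length of the longest coding transcript in GENCODE M21. On that scale Csf1r was at 686 to 1240 and Cx3cr1 at 495 to 844 CPM per kb in microglia, and their ranges overlapped. Csf3r followed at 131 to 148, apart from all others. The ranges of Csf2ra (59.2 to 79.1), Csf1 (47.5 to 102) and Csf2rb (46.8 to 64.0) overlapped. In astrocytes Csf1 (8.54 to 19.1 CPM per kb) and Cx3cl1 (6.41 to 12.6) overlapped each other and the values of Csf1r (6.16 to 28.0), while Il34, at 0.156 to 2.85, lay below all 3.

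Between the genotypes, none of the members tested was called: 6 in microglia, where Csf1r was given no test and Il34 was too low for one, and 8 in astrocytes. In microglia edgeR called 0 of 14191 genes (0%), with 1053 genes at an unadjusted p under 0.05 and 41 genes called by DESeq2. Of the 6 members tested there besides Csf1r, 0 were called and 0 had an unadjusted p under 0.05, by edgeR and by DESeq2, and their median log2 fold change was -0.01, beside 0.00 over all genes tested. Il34 did not pass the filter on low counts in microglia. In astrocytes edgeR called 0 of 15755 genes (0%), with 373 at an unadjusted p under 0.05 and 4 called by DESeq2. All 8 members were tested there, and 0 were called or had an unadjusted p under 0.05 by either tool. Counting libraries that do not overlap instead, 13.1% of the genes in microglia and 8.13% in astrocytes had KO and WT apart in either direction, and 5.74% in astrocytes had KO below WT. Apart from Csf1r and the 1 to 7 counts of Il34, both in microglia, the genotypes overlapped for every member in both cell types.

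Csf1r, chosen partly for this difference, had a mean of 5154 ± 682 CPM in WT microglia and 3672 ± 573 CPM in KO (SD, n = 3 each), a log2 fold change of -0.52. The highest KO library was below the lowest WT library, as for 6.57% of the genes tested. With each replicate left out the value ran from -0.63 to -0.41. This range rests on the libraries on which Csf1r was partly chosen and is a description only. Relative to the counts of Cx3cr1 in the same library, Csf1r was 2.62, 1.74 and 1.51 times as abundant in WT and 1.21, 1.09 and 1.14 times in KO. This ratio uses the same Csf1r values again, so it is no separate evidence. Cx3cr1 itself had a higher mean in KO (3217 CPM) than in WT (2735 CPM), which widens the ratio. The microglia marker list took 0.772% to 1.05% of the counts in WT and 0.945% to 1.20% in KO, which overlap. Markers of border macrophages took 0.0170% to 0.0373% in WT and 0.0226% to 0.0356% in KO microglia, which overlap. Markers of monocytes, which also express Csf1r, took 0.0129% to 0.0249% in WT and 0.00801% to 0.0129% in KO microglia, all 6 of them with a count. Vcan is in the monocyte list, the list of oligodendrocyte precursor markers and the list of CSF-1 binding partners. Neuron markers took 0.00312% to 0.00448% in WT and 0.00158% to 0.00240% in KO. Of the 12 lists of cell type markers examined, only those of monocytes and neurons had summed shares that did not overlap between WT and KO microglia. In each a single gene decided this. Fn1, which is not specific to monocytes, made up 92.6% to 95.9% of the monocyte list in microglia, and without it the other 5 genes summed to 6.11 to 13.8 CPM in WT and 3.26 to 6.88 CPM in KO, which overlap. Meg3 was at 15.3 to 19.6 CPM in WT and 4.43 to 4.94 CPM in KO microglia, and without it the other 9 neuron markers summed to 15.9 to 25.2 CPM and 11.4 to 19.2 CPM, which overlap. Every tested marker of astrocytes (10 genes), endothelium (7) and mural cells (4) had a log2 fold change of KO over WT below 0 in microglia. The same held for choroid plexus and ependyma (4), monocytes (4) and oligodendrocyte precursors (3). The medians of these lists ran from -1.32 to -0.61. Neurons had 8 of 10 markers below 0 and oligodendrocytes 4 of 8. Neutrophils had 2 of 4, microglia 3 of 10 and border macrophages 1 of 6. None of these genes was called by edgeR. The part of these cells in the Csf1r values was not tested.

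Cx3cr1 was at 2735 ± 616 CPM in WT microglia and 3217 ± 502 CPM in those of KO animals (SD, n = 3 each), and the groups overlapped. Its log2 fold change was 0.21 (95% interval -0.22 to 0.64, edgeR adjusted p 0.845). Csf3r was at 478 ± 26.6 and 483 ± 28.3 CPM (SD, n = 3 each), with a log2 fold change of -0.01 (95% interval -0.39 to 0.37, edgeR adjusted p 0.995). The interval for Csf3r thus ends below a 1.5-fold change in either direction. Csf2rb and Csf2ra had log2 fold changes of -0.02 (95% interval -0.43 to 0.40) and 0.01 (-0.41 to 0.43), with edgeR adjusted p of 0.994 and 0.995.

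Csf1 was at 302 ± 115 CPM in WT microglia and 235 ± 25.9 CPM in those of KO animals (SD, n = 3 each). The log2 fold change was -0.40 (95% interval -0.95 to 0.16, edgeR adjusted p 0.774). It depended on single libraries: the value was -0.06 without WT replicate 1, the highest at 426 CPM, and -0.63 without WT replicate 3, the lowest WT library at 199 CPM (edgeR adjusted p 0.999 and 0.458). In astrocytes Csf1 had a log2 fold change of -0.21 (95% interval -0.72 to 0.31, edgeR adjusted p 0.999), which was -0.02 without KO replicate 2, the lowest library.

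Cx3cl1 in astrocytes was at 31.2 ± 9.50 CPM in WT against 27.2 ± 5.12 CPM in KO (SD, n = 3 each), with overlapping groups and a log2 fold change of -0.05 (95% interval -0.71 to 0.62, edgeR adjusted p 0.999). Il34 in astrocytes was at 3.56 ± 1.43 CPM in WT against 1.71 ± 1.75 CPM in KO (SD, n = 3 each). KO replicate 3 was within the WT values and KO replicate 2 held 3 counts, and the interval was wide (log2 fold change -1.03, 95% interval -3.29 to 1.22, edgeR adjusted p 0.999). The low receptor counts of astrocytes gave wide intervals too, with log2 fold changes of -0.22 for Csf1r (95% interval -1.11 to 0.67), 0.14 for Cx3cr1 (-0.75 to 1.04) and 0.74 for Csf2rb (-0.92 to 2.39). Il34 in microglia, at 1 to 7 counts in WT and 0 in KO, was too low to compare.

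**Figure D4:**
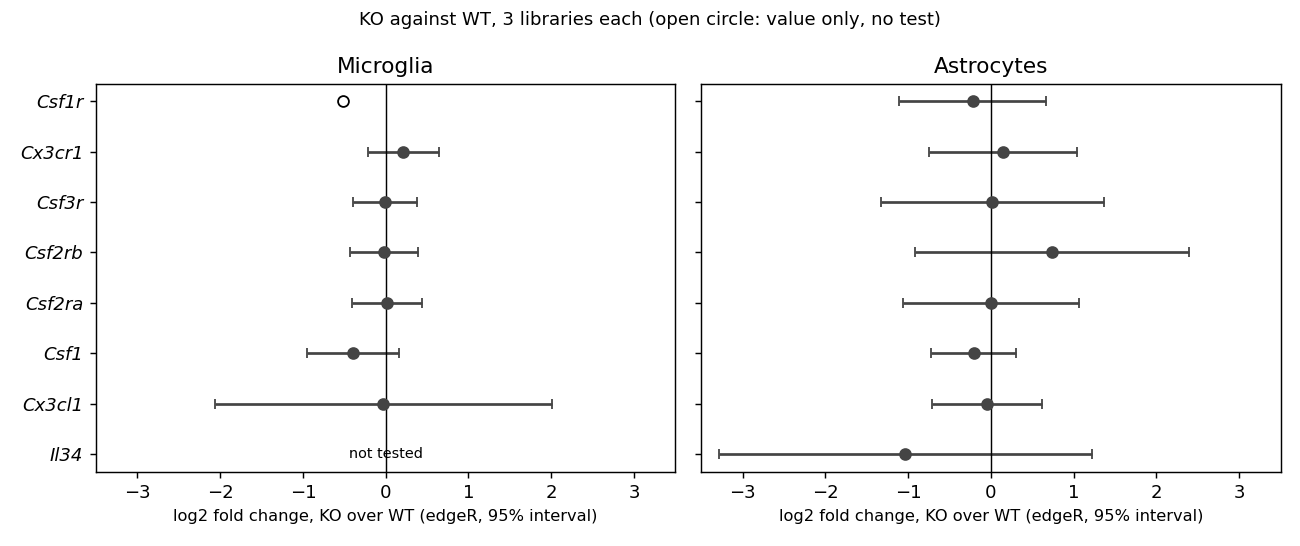
Log2 fold change of KO over WT with its 95% interval (edgeR, 3 libraries each) for the 8 genes in microglia (left) and astrocytes (right). The intervals of all tested genes include 0; Csf1r in microglia is an open circle at -0.52 with no interval, and Il34 was not tested in microglia.

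Receptor in microglia and ligand in astrocytes of the same animal are given side by side. For Csf1r and Csf1 the values were 5831 and 73.8 CPM, 4468 and 70.3 CPM, and 5162 and 78.4 CPM in WT animals 1 to 3. In KO animals 1 to 3 they were 3475 and 79.9 CPM, 3224 and 35.6 CPM, and 4318 and 67.2 CPM. The lowest receptor and the lowest ligand value were in the same animal, KO replicate 2, but the highest were in WT replicate 1 (Csf1r) and KO replicate 1 (Csf1). In the astrocyte library of KO replicate 2, 8 abundant non-coding transcripts took 39.5% of counts, the highest share, and the fewest genes had a count (15791). Their part in its CPM was not tested. Csf1r was also partly chosen on these microglia values. For Cx3cr1 and Cx3cl1 the values were 2222 and 23.0 CPM, 2565 and 29.0 CPM, and 3419 and 41.6 CPM in WT animals. In KO animals 1 to 3 they were 2885 and 21.3 CPM, 2972 and 30.2 CPM, and 3794 and 30.0 CPM. Within each genotype the animal with the highest Cx3cr1 in microglia was replicate 3, and the highest Cx3cl1 in astrocytes was in replicate 3 in WT and in replicate 2 in KO.

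Whether genotype acted differently in astrocytes and microglia was tested in 1 fit of 12 libraries, where edgeR called 0 of 17294 genes (0%), with 1102 at an unadjusted p under 0.05 and 62 called by DESeq2. Of the 7 members other than Csf1r, 0 were called and 0 had an unadjusted p under 0.05 by either tool. All 7 values were above 0, as was the median over all genes tested, 0.16, and Cx3cr1 (0.03), Csf2ra (0.10), Csf3r (0.13), Cx3cl1 (0.14) and Csf1 (0.30) had edgeR adjusted p of 0.995 to 1. Csf2rb was at 0.83 (95% interval -0.66 to 2.33, edgeR adjusted p 0.94), and Il34, with no count in KO microglia, had an edgeR adjusted p of 0.798 and no fold that can be read.

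Related genes of the pathway were counted by lists. Of 10 transcription factors known to act on the Csf1r gene, 10 were called higher in microglia (median 4.74 on the log2 scale). Sall1 is in this list and in that of the microglia markers. Among them were Runx1 at 5.65 (SE 0.23) and Spi1, which encodes PU.1, at 5.38 (SE 0.27). Of 26 genes of CSF1R signal transduction, 22 were called higher in microglia and 1, the kinase gene Fyn, lower, with a median of 2.63. The highest were Pik3cg, a catalytic subunit of phosphoinositide 3-kinase, at 5.51 (SE 0.35), the lipid phosphatase gene Inpp5d at 5.39 (SE 0.21) and Socs3, an inhibitor of cytokine signalling, at 5.35 (SE 0.27). Over all 17294 genes the median was -0.19, with 28.2% called higher in microglia and 36.4% lower.

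Of 14 genes of fractalkine shedding and CX3CR1 signalling, 9 were called higher in microglia and 2 lower, beside 28.2% and 36.4% of all genes, and the median was 1.16. Ctss, encoding the protease cathepsin S, was higher by 5.22 (SE 0.26) on the log2 scale, the integrin gene Itgb3 by 4.57 (SE 0.33) and Rhbdf2, whose product guides the sheddase ADAM17 to the cell surface, by 4.30 (SE 0.31). The sheddase genes Adam17 and Adam10 were also higher in microglia, at 2.40 (SE 0.18) and 1.93 (SE 0.16). Rhbdf1 was lower, at -1.45 (SE 0.28), as was Itgav. Of 4 genes of other binding partners of IL-34 and CSF-1, 2 were called lower in microglia and none higher, a share near the 36.4% of all genes that were lower. Ptprz1, the gene of a receptor phosphatase that binds IL-34, had 1483 ± 143 CPM in astrocytes of WT and 1554 ± 263 CPM in those of KO animals, beside 25.0 ± 8.07 and 15.4 ± 2.81 CPM in microglia (SD, n = 3 each), with a log2 difference of -6.55 (SE 0.23). Vcan, encoding versican, was at -3.01 (SE 0.31). Of 11 related cytokine and receptor genes 7 passed the filter on low counts, of which Csf2rb2 was called higher in microglia, at 5.56 (SE 0.44), and Kit, the stem cell factor receptor gene, lower, at -4.09 (SE 0.74). The edgeR adjusted p of the list genes named in this paragraph and the one before were 0.00252 or less.

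Between the genotypes edgeR called 0 genes of these 5 lists in either cell type. The lists chosen around the receptors had median log2 fold changes in microglia of 0.09 (10 transcription factor genes), 0.06 (26 CSF1R signalling genes) and -0.10 (14 fractalkine genes), beside 0.00 over all genes. The remaining lists were at -0.72 (3 binding partner genes tested, all 3 below 0) and 0.16 (4 related cytokine and receptor genes tested). An unadjusted edgeR p under 0.05 was found for 2 of the 3 binding partner genes and 3 of the 14 fractalkine genes. In the other lists 0 genes had one, beside 1053 of all 14191 genes. In astrocytes the medians of the 3 lists around the receptors were -0.11, 0.11 (25 genes tested) and 0.01. The binding partner list was at -0.37 (4 genes tested) and the cytokine and receptor list at -0.31 (6 genes tested). There 1 CSF1R signalling gene and 1 binding partner gene had an unadjusted edgeR p under 0.05, beside 373 of 15755 genes.

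Genes whose level followed a member most closely were ranked by Pearson's r of log2 (CPM + 1) over the 6 libraries of the cell type in which the member is higher, among 8750 genes in microglia and 9473 in astrocytes, as a description only. For Csf1r they were Tap2 (0.995), Abca3 (0.989) and Nlgn2 (0.988), and for Cx3cr1 Sp1 (0.997), Fcgr2b (0.995) and Hhex (0.991). For Csf1 they were Sap25, Gpc2 and Tbc1d10a, for Csf2ra Wasl, Eri3 and Ciao3, for Csf2rb Calm3, Fads1 and Sod1, and for Csf3r Trmt44, Mrps18a and Rgs7bp, all at 0.955 to 0.999. For Cx3cl1 in astrocytes they were Rps6kc1 (0.987), Clec3b (0.974) and Gemin8 (0.958). No member was among the genes nearest to another. The highest r of so many genes over 6 libraries are high by selection, and no background was computed. The microglia libraries hold both genotypes, so the r of Csf1r includes the difference it was partly chosen on. The microglia library of WT replicate 1 had the highest Csf1 and the lowest Cx3cr1 level of the 6.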

How the data were processed

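RNA of sorted glia was amplified as full-length cDNA with a SMART-Seq HT kit and made into Nextera libraries, per the labels' protocols; no molecular identifiers are mentioned. For microglia and for astrocytes the authors deposited a table of estimated counts by gene symbol; column names end as RSEM's gene-level output does, per the file headers. STAR 2.7.10b, RSEM 1.3.3, limma and GRCm39 are named in the submitters' processing notes; the annotation is not named there. All 12 columns were matched to libraries by name. Values were rounded to integers for the tests, and CPM are relative to the library total. Libraries of a group differed by more than sampling noise (chi-square per degree of freedom 32.0 to 127).

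Tests were edgeR 4.0.16 quasi-likelihood tests (R 4.3.3, TMM factors, filterByExpr with a minimum count of 10, Benjamini-Hochberg adjustment over all genes, called under 0.05), fitted per cell type for genotype and over 12 libraries for cell type and for the difference of effects. The scripts were tested on simulated data. The SE is the log2 fold change divided by the root of F. Alternatives were DESeq2 1.42.0, its size factors, other filters, blocks, library totals and each replicate left out. Replicates are separate animals; amplified copies are not independent molecules, so count intervals cover counting error only.

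Members, lists and tests were chosen with earlier results of these data known. Named are the members, Csf2rb2, Kpna4, list genes called between genotypes, per list the 3 largest called differences between cell types, the 3 nearest genes of each member with at least 10 CPM, and the markers set beside a member. A gene that this rule names among the transcription factors is not reported here. Other list genes (Fyn, Adam10, Adam17, Rhbdf1, Itgav, Il3ra) were named after their values were seen. Both libraries of a mouse carry its number in the labels, which pairs the cell types; deviations within a mouse correlated at 0.042 to 0.245 in WT and -0.038 to 0.249 in KO animals. Nothing in the labels ties a WT to a KO mouse of the same replicate number.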

Additional observations from a re-analysis of the deposited data

How the results depend on the processing

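The alternatives were planned, except Il34 with an animal left out and 2 marker lists without 1 gene, which were chosen after seeing the data, and for each change below the cause was not tested. Between the cell types, the 21 genes examined (the members, Csf2rb2 and the list genes named by rule) kept their direction and call in 272 of 272 fits, Il34 being absent from the fit with a minimum count of 50; with the animal as a block all 8 members were called too. The median log2 fold change of all genes moved from -0.19 with TMM to 0.09 with the deposited totals and -0.22 with totals without 8 abundant non-coding transcripts, which took 11.8% to 15.4% of microglia and 26.2% to 39.5% of astrocyte counts. The number of genes called was 10266 to 10958 with an animal left out.

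Between the genotypes no member was called in the 228 fits with a test (Csf1r in microglia and for the difference of effects has none), the lowest adjusted p being 0.458 (Csf1 in microglia without WT replicate 3). The count of genes called in microglia, 0, became 41 with DESeq2, 121 without a filter and 30 with the replicate number as a block, with none of the members tested among them; it was 0 to 2 with a replicate left out (Gm22614 and Gm24830 without KO replicate 2). Same-numbered WT and KO libraries deviated together at 0.059 to 0.374 in microglia and -0.015 to 0.507 in astrocytes, so the numbers were not taken as pairs. In astrocytes the count became 4 with DESeq2 (Col16a1, Gm14434, Gm2026 and H2ac7), 17 without a filter and 0 to 1 with a replicate left out (Npcd without WT replicate 1); the replicate block left it at 0. For the difference of effects it became 62 with DESeq2, 160 without a filter and 0 to 6 on leaving out single animals (at WT replicate 2 Lrch4, at KO replicate 3 Slc24a4, Sfrp5, Plcd4, Ntsr2, H2ac13 and Gpc6). The genes in brackets were chosen with their values known.

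The members' log2 fold changes between genotypes changed sign in 46 of these 228 fits and in 2 of the 22 without a test, both for Csf1r in the difference of effects. With a minimum count of 50 Csf2ra in microglia was at -0.027. For the difference of effects without a filter Csf2ra was at -0.049, Csf3r at -0.026, Cx3cl1 at -0.059 and Cx3cr1 at -0.15, and Cx3cr1 was at -0.039 with DESeq2 and -0.040 with its size factors. With each replicate left out, the ranges of the values that changed sign were, in microglia, -0.090 to 0.095 for Csf2ra, -0.086 to 0.11 for Csf2rb, -0.052 to 0.046 for Csf3r and -1.01 to 0.83 for Cx3cl1; in astrocytes, -0.61 to 0.36 for Csf1r, -0.24 to 0.44 for Csf2ra, -0.35 to 1.13 for Csf3r, -0.28 to 0.15 for Cx3cl1 and -0.21 to 0.84 for Cx3cr1; and for the difference of effects, -0.12 to 0.53 for Csf1, -0.10 to 0.81 for Csf1r (0.40 with all animals), -0.33 to 0.38 for Csf2ra, -0.38 to 1.13 for Csf3r, -0.62 to 1.13 for Cx3cl1 and -0.49 to 0.80 for Cx3cr1. Depth limits Il34 in both cell types and Cx3cl1 in microglia.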
